A study of Mus musculus with 11 samples.

Results

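The T cell receptor complex and coreceptor genes are 10 genes taken by name from the deposited gene table, out of 55487 listed genes: the CD3 chain genes Cd3d, Cd3e, Cd3g and Cd247, the coreceptor genes Cd8a, Cd8b1 and Cd4, and the genes of the first signalling steps, Lck, Zap70 and Lat. All 10 were found, each under 1 identifier, and all 10 passed the filter on low counts in the sorted T cell libraries. The study asked how FGF21 made by tumour cells acts on CD8+ T cells in MC38 tumours. MC38 is a mouse colon carcinoma line. Here its cells carried either shNC, the control hairpin, or shFgf21, a hairpin aimed at Fgf21. T cells sorted from such tumours gave 3 shNC and 2 shFgf21 libraries, and libraries labelled as tumour and as MC38 gave 3 of each kind. The genotype label of the shNC libraries is WT and that of the shFgf21 libraries is a knockdown of FGF21, except that shFgf21 sorted replicate 2 is labelled as a knockdown of FGF22, with a title that matches its partner. The titles of the sorted libraries each join 2 or 3 numbers, and the labels do not explain them. The sources used here do not give mouse strain, age or the antibodies of the sort. The tumour libraries are labelled as mesenchymal cells. No label names separate animals or cultures, so p-values cover variation among libraries that could be technical.

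The T cell receptor on most T cells is a pair of alpha and beta chains that binds antigen but cannot signal alone. It is held at the surface by the CD3 gamma, delta and epsilon chains (Cd3g, Cd3d, Cd3e) and by the zeta chain (Cd247), whose tails carry the tyrosines that are phosphorylated when antigen binds. CD8, made of an alpha and a beta chain (Cd8a, Cd8b1), and CD4 bind MHC class I and class II molecules and bring the kinase LCK to the receptor. LCK phosphorylates the CD3 and zeta tails, the kinase ZAP-70 docks there, and ZAP-70 phosphorylates the adaptor LAT, on which later signalling enzymes assemble. These genes define T cells, but Cd247, Zap70, Lck and Lat are also known from natural killer (NK) cells, Cd8a from a subset of dendritic cells and Cd4 from some myeloid cells.

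Library totals ran from 14944013 to 19099350 counts. Fgf21 had 0 counts in 9 libraries and 2 and 1 counts in shNC tumour replicates 2 and 6, so the knockdown could not be checked at this depth. Abl1, which separated the tumour groups (41.9 to 48.0 CPM in shNC and 132 to 162 CPM in shFgf21, scaled over all libraries), was at 42.4 and 42.5 CPM in shNC sorted replicates 1 and 2 and at 151 CPM in shNC sorted replicate 3, beside 167 and 149 CPM in the shFgf21 sorted libraries. For this gene the library labelled shNC replicate 3 therefore lay with the other hairpin. The fold changes, shares, ratios and list counts in sorted cells are also given without it, and the ranking of profiles at the end uses all 5 libraries only. The 12 macrophage and monocyte markers took 1.12% to 1.35% of counts in shNC and 1.65% to 1.75% in shFgf21 sorted libraries, against 0.0261% to 0.0483% and 0.0284% to 0.0341% for 10 T cell markers, of which 4 are CD3 chain genes described here. Of the 12, 11 had a positive log2 fold change, where 51.8% of all 16454 genes tested had a negative one. For 8 of them both shFgf21 libraries lay above all shNC libraries, which held for 14.5% of all genes. An unadjusted p under 0.05 by edgeR was seen for 7, where 11.2% of all genes tested had one. After adjustment 0 of the 12 passed, where 0.079% of all genes did. Without shNC replicate 3, 11 of the 12 were again positive and 8 had an unadjusted p under 0.05 (11% of all genes). The macrophage markers took more counts than the T cell markers in every library labelled as sorted T cells.

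The promoters of Cd3d, Cd3g and Cd3e are shown because these genes lie side by side on chromosome 9 and had similar profiles across the sorted libraries. The sequences are the 250 bases before the RefSeq transcript start (GRCm38.p6, the same assembly as mm10), written 5′ to 3′ on the strand of the gene, at chr9:44981536-44981785 (plus), chr9:44980432-44980681 (minus) and chr9:45009612-45009861 (minus). Capitals mark the ETS core motif AGGAAG and the E-box CANNTG, searched on both strands.
Cd3d: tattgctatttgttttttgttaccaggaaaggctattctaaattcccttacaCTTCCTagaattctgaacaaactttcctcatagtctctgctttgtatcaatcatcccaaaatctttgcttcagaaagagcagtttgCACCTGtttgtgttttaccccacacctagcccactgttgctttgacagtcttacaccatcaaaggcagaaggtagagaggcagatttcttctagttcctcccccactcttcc
Cd3g: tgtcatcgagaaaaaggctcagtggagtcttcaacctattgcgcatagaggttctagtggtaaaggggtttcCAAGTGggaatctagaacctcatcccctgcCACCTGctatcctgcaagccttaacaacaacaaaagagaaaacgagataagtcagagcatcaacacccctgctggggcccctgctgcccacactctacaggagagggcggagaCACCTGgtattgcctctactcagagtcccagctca
Cd3e: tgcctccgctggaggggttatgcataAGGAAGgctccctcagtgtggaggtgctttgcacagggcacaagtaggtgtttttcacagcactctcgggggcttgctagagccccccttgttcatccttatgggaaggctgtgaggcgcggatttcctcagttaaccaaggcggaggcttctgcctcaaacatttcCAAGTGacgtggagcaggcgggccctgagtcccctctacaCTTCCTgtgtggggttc
The ETS motif occurred once in the Cd3d window, in 2 places for Cd3e and in none for Cd3g, and it occurred in 29.5% of all 32851 promoter windows of this length. The E-box occurred once for Cd3d, once for Cd3e and in 3 places for Cd3g, and 66.2% of all windows held it. TGTGGT, the RUNX core, was in none of the 3 windows (14% of all windows). Cd3g alone held AGATAA, a word known for binding zinc finger factors of T cell development (9.99% of all windows). Cd3d alone held CTTTGA, the word of TCF and LEF factors, in 2 places (13.8% of all windows). RefSeq promoter windows were matched for 8 of the 10 genes. A match is a description of the sequence and was not tested for binding.

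The sorted libraries and the MC38 tumour libraries were compared first, in the control groups. All 10 genes were higher in shNC sorted T cells than in shNC tumour libraries. All 10 passed (edgeR quasi-likelihood, Benjamini-Hochberg adjusted p from 7.85e-06 to 2.29e-04), where 19.1% of all 16104 genes tested passed in that direction. Only 1 of the 10, Lck, passed the filter on low counts among tumour libraries alone. The others entered this test through their counts in the sorted libraries, so a call in the higher direction was nearly fixed in advance. The 10 calls are therefore no check of the labelled cell type. All 12 macrophage and monocyte markers were also called higher. Their median log2 fold change was 10.3, beside 11.3 for the 10 T cell markers. The T cell markers Cd3e, Cd247, Trbc1, Cd2, Cd5 and Cd6 had 0 counts in the shNC tumour libraries. Their fitted fold changes are therefore not measured sizes, and the medians cannot be set against each other. Of those tested, 5 of 5 NK cell, 5 of 5 neutrophil, 4 of 5 dendritic cell and 0 of 2 B cell markers were called higher. Mesenchymal markers took 1.16% to 1.303% of counts in shNC sorted libraries, against 1.76% to 1.92% in shNC tumour libraries. The comparison thus cannot tell T cells from a mixture with other white blood cells and with tumour or other mesenchymal cells. Cd3e (chromosome 9, 44998740 to 45009627, mm10) had 1003, 828 and 517 counts in control sorted libraries, 487 and 528 counts in shFgf21 ones, and 0 counts in each of the 6 tumour libraries. Against the limit of 3 counts over the shNC tumour group that a count of 0 allows, it was at least 879-fold higher in shNC sorted cells. Cd8b1 (chromosome 6, 71322788 to 71337494) was likewise at 0 in all 6 tumour libraries and at least 593-fold higher. Cd4 (chromosome 6, 124864692 to 124888221) and Cd247 (chromosome 1, 165788681 to 165877277) were at 0 in the shNC tumour libraries, with 2 counts each in a single shFgf21 tumour library, and were at least 558-fold and 260-fold higher.

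The other genes had a few tumour counts. Cd3g (chromosome 9, 44969572 to 44980431) and Cd3d (chromosome 9, 44981786 to 44987339) had 5 counts each over the shNC tumour libraries. The Cd3d ratio of sorted to tumour was 363 (95% exact interval 155 to 1121, counting error only), and that of Cd3g was 538 (230.2 to 1658). Cd8a (chromosome 6, 71373427 to 71379173) had 9 counts over the shNC tumour libraries, a ratio of 406 (213 to 888). Zap70 (chromosome 1, 36761798 to 36782818) had 3, a ratio of 771 (264 to 3743). Lat (chromosome 7, 126363824 to 126369570) had 13, with 2 to 7 counts in every tumour library and a ratio of 137 (80.04 to 258).

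Lck (chromosome 4, 129548344 to 129573641) stood apart from the others in the tumour libraries, with 8 to 35 counts in all 6 of them. It had 22, 35 and 15 counts in shNC tumours and 16, 8 and 11 in shFgf21 tumours, and the groups overlapped. The ratio of shNC sorted to shNC tumour was 45.8 (95% exact interval 36.3 to 58.7), below the intervals of the other 5 genes with tumour counts. It was the only gene of the 10 to pass the filter in the tumour comparison. Its level there averaged 1.36 ± 0.4998 CPM in control tumours, against 0.720 ± 0.227 CPM in shFgf21 tumours (SD, n = 3 each). The log2 fold change was -0.90 ± 0.44 (SE) with an adjusted p of 0.825 by edgeR. Thus 0 of the 10 genes were called in tumours, where 0.0334% of 14950 genes were. The unadjusted p of Lck by edgeR was 0.0691, and 6.22% of all genes had one under 0.05.

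**Figure D1:**
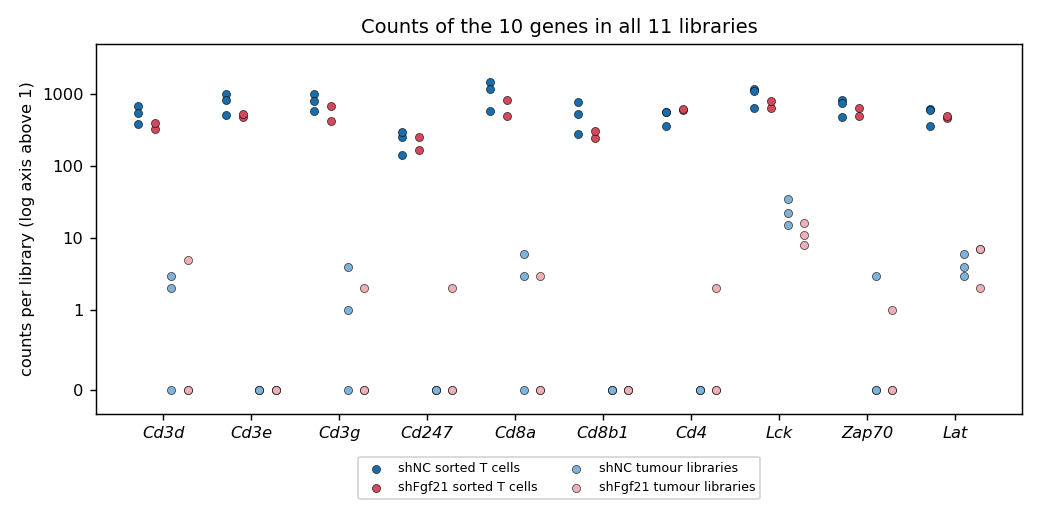
Counts of each gene in each of the 11 libraries, on an axis that is logarithmic above 1 and shows 0, coloured by group. Every gene is at 144 counts or more in the sorted libraries and at 35 counts or fewer in the tumour libraries, where Cd3e and Cd8b1 are at 0 throughout and Lck is the highest.

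Levels of different genes within the sorted libraries were compared per kilobase of merged exons (GENCODE M21), as CPM per kb. Lck was highest by the mean of the 5 sorted libraries, at 21.4 ± 7.17 in shNC and 16.2 ± 2.16 in shFgf21 (SD, n = 3 and n = 2), followed by Cd8b1, Cd3d, Cd8a, Cd3g, Zap70, Lat, Cd3e, Cd4 and Cd247. Most neighbours in this order could not be separated. The range of each gene down to Cd3e overlapped that of the next, and Lck lay above Cd8b1 in 4 of 5 libraries and Cd3g above Zap70 in 2 of 5. Zap70 lay above Lat in each of the 5 libraries, although their ranges overlapped. Cd247 was the exception, at 2.79 ± 1.08 in shNC and 2.56 ± 0.637 in shFgf21. It lay below Cd4, at 7.88 ± 2.26 and 9.95 ± 0.118, in all 5 libraries with no overlap. With the length of the longest transcript in place of merged exons, a choice made after seeing the data, Cd4 and Cd247 were again last, and the order among the other 8 changed. Pou2f1 overlaps the end of Cd247 and had 313 to 484 counts in the tumour libraries, where Cd247 had 0 to 2.

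The main comparison set the 2 shFgf21 sorted libraries against the 3 control ones. None of the 10 passed (edgeR quasi-likelihood, Benjamini-Hochberg adjusted p from 0.439 to 0.928), where 0.079% of 16454 genes tested did. At an unadjusted p under 0.05 there was 1 gene, Cd8b1, and DESeq2 and limma voom also called 0 of the 10. Of the 10 log2 fold changes 9 were negative, against 51.8% of all genes tested, and their median was -0.45 against -0.01 over all genes. Only Cd4 had groups that did not overlap, in the higher direction, which held for 14.5% of all genes, and 0 genes were separated in the lower direction, which held for 15% of all genes. In bulk libraries fewer T cells and less of an RNA per T cell cannot be told apart.

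Among the CD3 chains, Cd3e was at 64.1, 55.4 and 30.6 CPM in control replicates 1 to 3, against 32.4 and 33.6 CPM in shFgf21 replicates 1 and 2. The shNC replicates 1 and 2 were high, and shNC replicate 3 lay below both shFgf21 libraries. Its log2 fold change came to -0.60 ± 0.28 (SE) at an adjusted p of 0.480 by edgeR. Cd3d was at 43.7, 37.0 and 22.5 CPM in the control libraries, against 22.1 and 25.7 CPM with shFgf21, with shNC replicate 3 between the shFgf21 values (-0.52 ± 0.26). Cd3g was at 63.7, 54.5 and 34.5 CPM in the control libraries, against 28.4 and 43.7 CPM with shFgf21, again with shNC replicate 3 inside the shFgf21 range (-0.50 ± 0.27). Cd247, the signalling zeta chain, was at 16.2, 19.8 and 8.53 CPM in the control libraries, against 11.3 and 16.1 CPM with shFgf21, and the groups overlapped with a log2 fold change of -0.12 ± 0.33. The sign of Cd247 turned to 0.14 without shNC replicate 2 and to 0.12 without shFgf21 replicate 1.

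The CD8 chains had the lowest fold changes of the 10. Cd8b1, the beta chain, was at 49.1, 35.8 and 16.6 CPM in the control libraries, against 16.5 and 19.5 CPM with shFgf21, which gave -0.91 ± 0.39 on the log2 scale (SE, edgeR unadjusted p = 0.0484, adjusted p = 0.439). Of all genes tested, 3.12% had a lower log2 fold change than Cd8b1. Cd8a, the alpha chain, was at 95.5, 78.3 and 34.6 CPM in the control libraries, against 33.1 and 53.4 CPM with shFgf21 (-0.68 ± 0.40). For both chains shNC replicate 3 lay at the level of the shFgf21 libraries and the other shNC libraries lay above them. Of the 8 dendritic cell markers 5 were negative and 3 positive, with a median of -0.08, and 0 were called. Xcr1 and Clec9a mark the dendritic cells that carry CD8 alpha, and they had opposite signs: Xcr1 was at -0.94 ± 0.30, without overlap, and Clec9a at 0.63 ± 0.58, with no library above 0.999 CPM. Zbtb46, a factor of classical dendritic cells, was higher in both shFgf21 libraries (0.76 ± 0.24) and Itgax was lower in both (-0.33 ± 0.13). Their part in the Cd8a level was not tested.

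Cd4 was the only gene of the 10 with a positive fold change. It was at 36.0, 38.0 and 21.3 CPM in the control libraries, against 40.4 and 39.8 CPM with shFgf21, so both shFgf21 libraries lay above all shNC libraries. That gave 0.34 ± 0.23 on the log2 scale (SE, edgeR adjusted p = 0.626), and without shNC replicate 3 it was 0.11 ± 0.12 (adjusted p = 0.777). The summed share of the macrophage markers was also higher in both shFgf21 libraries than in all shNC libraries. Singly, 8 of the 12 were so, as were 14.5% of all genes tested. Cd14, Mrc1 and Fcgr1 overlapped between the groups with positive fold changes, and Itgam overlapped with a log2 fold change of -0.07. Their part in the Cd4 level was not tested.

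The 3 signalling genes were negative and overlapped between the groups. Lck was at 75.7, 73.8 and 38.4 CPM in the control libraries, against 43.0 and 52.0 CPM with shFgf21 (log2 fold change -0.40 ± 0.27, SE). Zap70 was at 52.6, 50.1 and 28.8 CPM in the control libraries, against 33.4 and 40.7 CPM with shFgf21 (-0.24 ± 0.25). Lat was at 39.98, 40.1 and 21.5 CPM in the control libraries, against 30.8 and 32.0 CPM with shFgf21 (-0.11 ± 0.25). Lat turned to 0.028 and 0.032 without shNC replicates 1 and 2. For all 3 genes shNC replicate 3 was the lowest of the 5 libraries and shNC replicates 1 and 2 were the highest.

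**Figure D2:**
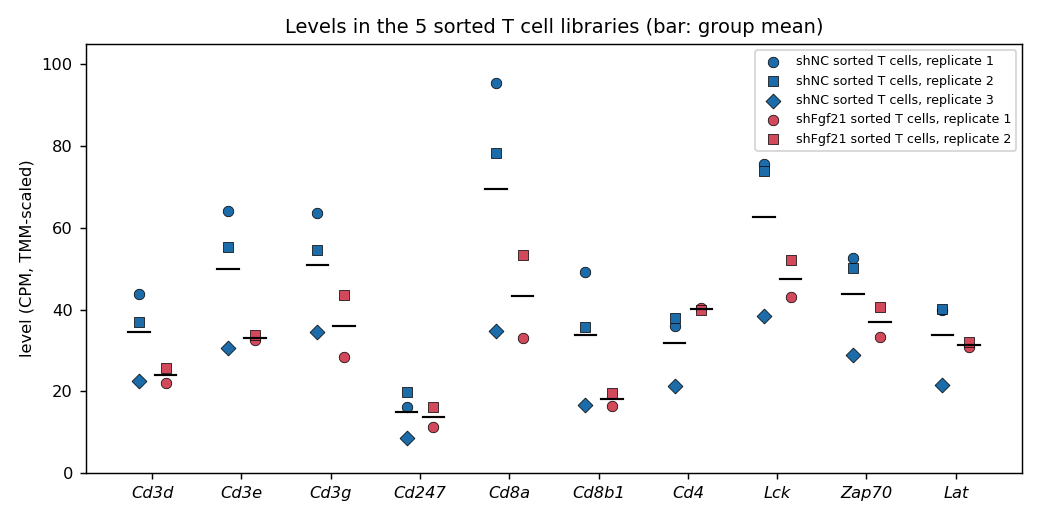
Level of each gene in CPM in the 5 sorted T cell libraries, with a symbol per replicate and a bar at the mean of each group. The shNC replicate 3 (blue diamonds) lies below shNC replicates 1 and 2 for every gene, at 34.6 CPM for Cd8a against 95.5 and 78.3 CPM.

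Without shNC replicate 3 the same 9 genes were negative, and all 9 were then separated from the other shNC libraries (22.6% of all genes were, in that direction). A negative log2 fold change was seen for 51.6% of all genes. Cd4 was again separated in the higher direction (20.4% of all genes). The median log2 fold change moved from -0.45 to -0.69. At an unadjusted p under 0.05 there were 8 genes, all lower, against 5.32% of all genes, and none passed after adjustment (edgeR, smallest adjusted p = 0.0740, for Cd8b1), where 0.211% of all genes did. In that fit the log2 fold change was -1.24 ± 0.19 for Cd8b1, -1.01 ± 0.23 for Cd8a, -0.86 ± 0.14 for Cd3e, -0.66 ± 0.14 for Lck and -0.35 ± 0.12 for Lat (SE). The shNC replicate 3 was the lowest shNC library for each of the 10 genes, so each fold change falls when it is left out. Leaving out shNC replicate 1 instead gave a median of -0.27 with 8 genes negative. Leaving out shNC replicate 2 gave -0.36 with 7 negative. In both of these fits 0 of the 10 had an unadjusted p under 0.05 by edgeR. Without shFgf21 replicate 2, the library labelled FGF22, 9 genes were again negative (51.9% of all genes) with a median of -0.58. In the lower direction 4 were separated (27.2% of all genes), and Cd4 was separated in the higher one (25.7% of all genes). Cd3g had an unadjusted p under 0.05 (3.21% of all genes did, in the lower direction), and after adjustment 0 of the 10 and 0% of all genes passed by edgeR.

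**Figure D3:**
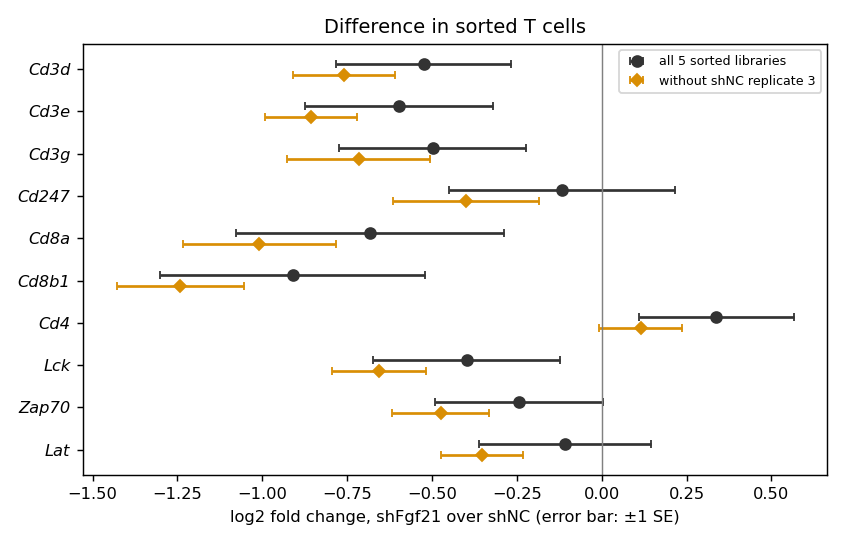
Log2 fold change of shFgf21 over shNC in sorted T cells for each gene, with bars of 1 SE, from all 5 libraries (circles) and without shNC replicate 3 (diamonds). Each point moves to a lower value without that library, and Cd4 is the only gene above 0 in both fits.

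The share of each gene among the 10 does not depend on their summed level. Cd4 took 6.70%, 7.87% and 8.28% of the 10 genes' counts in control replicates 1 to 3, against 13.9% and 11.2% in shFgf21 replicates 1 and 2. Cd8b1 took 9.15%, 7.41% and 6.46% in shNC and 5.65% and 5.47% in shFgf21. Both genes were separated between groups, in opposite directions, and shNC replicate 3 was the shNC library nearest to shFgf21. Cd3d and Cd3e also had lower shares in both shFgf21 libraries than in all shNC libraries (7.40% ± 0.243 against 8.18% ± 0.538, and 10.3% ± 1.198 against 11.8% ± 0.255, SD, n = 2 and n = 3). Zap70 and Lat had higher ones (11.4% ± 0.0332 against 10.5% ± 0.700, and 9.78% ± 1.14 against 8.04% ± 0.509). Cd3g, Cd247, Cd8a and Lck overlapped. Without shNC replicate 3 the 6 separated genes were separated in the same directions, and Cd8a was then separated too (11.4% and 14.98% with shFgf21, against 16.2% and 17.8%). Shares add up to a fixed total, so these are not independent. They have no counterpart over all genes, so the number of separated shares could not be judged. For levels, 15% of all genes were separated lower and 14.5% higher, and 22.6% and 20.4% without shNC replicate 3.

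The count ratio of CD8 (Cd8a plus Cd8b1) to Cd4 was 4.02, 3.004 and 2.41 in control replicates 1 to 3, against 1.23 and 1.83 in shFgf21 replicates 1 and 2. All shNC libraries lay above both shFgf21 libraries, a log2 difference of -1.04. Cd4 is also known from some myeloid cells, and the macrophage markers took a larger share in both shFgf21 libraries. The ratio therefore need not be that of CD8 to CD4 T cells, and the part of other cells in it was not tested. The exact two-sided permutation test over libraries gave p = 0.2, the smallest value that the test as run here can give for 3 against 2 libraries. Without shNC replicate 3 the log2 difference was -1.21. The ratio of the signalling genes (Lck, Zap70 and Lat) to the CD3 chains was 0.897, 0.984 and 0.923 in shNC and 1.14 and 1.05 in shFgf21, without overlap, a log2 difference of 0.23 (exact permutation p = 0.2), and 0.22 without shNC replicate 3. The Cd8b1 to Cd8a ratio was 0.514, 0.457 and 0.480 in shNC and 0.497 and 0.365 in shFgf21, and the groups overlapped (exact permutation p = 0.6). Its log2 difference of -0.18 was -0.19 without shNC replicate 3 and turned to 0.040 without shFgf21 replicate 2. The summed level of the 10 genes was 537, 483 and 258 CPM in shNC and 291 and 356 CPM in shFgf21, with overlap through shNC replicate 3 (log2 difference -0.33, exact permutation p = 0.6). Without that library the summed levels did not overlap, at a log2 difference of -0.66. Over the 6 ratios and sums computed, the Benjamini-Hochberg adjusted p was at least 0.4.

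**Figure D4:**
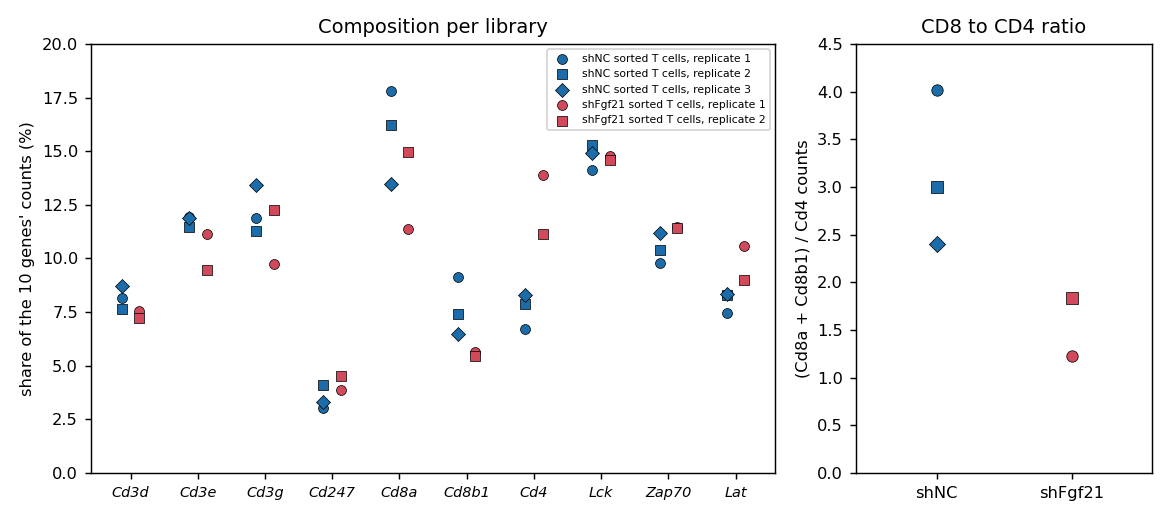
Left, the share of each gene in the summed counts of the 10 genes, in percent, for each of the 5 sorted libraries; right, the ratio of Cd8a plus Cd8b1 counts to Cd4 counts. Cd4 takes 11.2% and 13.9% in the shFgf21 libraries and at most 8.28% in the shNC libraries, and the CD8 to CD4 ratio lies between 2.41 and 4.02 in shNC and at 1.23 and 1.83 in shFgf21.

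Markers of other cells that the sort could hold were read beside these genes. The 6 NK cell markers took 0.00387%, 0.00361% and 0.00222% of counts in control replicates 1 to 3, against 0.00193% and 0.00147% in shFgf21 replicates 1 and 2, and none was at 0 in any sorted library. Of the 6, 5 were negative and 0 were called, with a median log2 fold change of -0.97, and all 6 were negative without shNC replicate 3. In the lower direction 4 were separated (15% of all genes were). An unadjusted p under 0.05 by edgeR was seen for 3 (11.2% of all genes). Klri2 was at -1.12 ± 0.34 and Klre1 at -1.03 ± 0.37, and Klrb1f alone was positive, at 0.28 ± 0.52. Ncr1, a receptor that defines NK cells, was at 1.24 to 2.34 CPM in control libraries, against 1.13 and 0.765 CPM with shFgf21, and Klrb1c was at 4.86 to 8.16 CPM, against 3.80 and 2.04 CPM. Their part in the levels of Cd247, Zap70, Lck and Lat was not tested. The 6 neutrophil markers took 0.00745% to 0.0143% in control libraries, against 0.00564% to 0.00631% with shFgf21. Csf3r, the most abundant of them with shFgf21, was at 0.26 ± 0.18 on the log2 scale. The other 4 tested were separated in the lower direction, which held for 15% of all genes. Each of the 4 had an unadjusted p under 0.05 by edgeR (11.2% of all genes did). S100a8 was at -1.67 ± 0.34, S100a9 at -2.49 ± 0.40 and Cxcr2 at -2.29 ± 0.77, and Retnlg was at 1.40 to 5.02 CPM, against 0.0666 and 0 CPM. The median of the 5 fitted values was -2.29, and -2.60 without shNC replicate 3. The 8 dendritic cell markers took 0.0119% to 0.0121%, against 0.00906% to 0.0108%. Mast cell and platelet markers (0.0375% to 0.0454%, against 0.0336% to 0.0415%), gamma delta T cell markers (0.00105% to 0.00165%, against 0.00109% to 0.00112%), B cell markers (0.000209% to 0.000308%, against 0.000216% to 0.000243%) and mesenchymal markers (1.16% to 1.303%, against 1.12% to 1.33%) overlapped. None of these markers was called, with or without shNC replicate 3, and their part in the results was not tested.

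Other genes of the receptor pathway did not share a direction in the sorted libraries, whose levels need not come from T cells alone. Of 51 tested members of the 4 lists 0 passed (edgeR quasi-likelihood, 6 with an unadjusted p under 0.05, where 11.2% of all genes tested had one). Without shNC replicate 3 there were 15 such genes of the 51 (11% of all genes) and without shFgf21 replicate 2 there were 2 (6.15% of all genes), again with 0 called. In the former fit, in the order of the lists below, 2, 4, 3 and 3 of these genes were lower and 0, 2, 0 and 1 higher. In the lower direction 5.32% of all genes had an unadjusted p under 0.05 by edgeR. The medians of the 4 lists were then -0.49, -0.04, -0.08 and -0.07, so those of the second and last list turned sign. Of 7 listed constant regions of the receptor chains, 4 were found under these names and all 4 were negative (median -0.41). Trac, the alpha constant region, was at 81.2, 67.5 and 36.1 CPM in the control libraries, against 44.4 and 45.6 CPM with shFgf21 (log2 fold change -0.45 ± 0.29, SE). Trbc1, a beta constant region, was at 30.3, 33.1 and 25.6 CPM, against 20.1 and 23.6 CPM, the only one of the 4 without overlap (-0.44 ± 0.15, adjusted p = 0.356), and Trbc2 was at -0.23 ± 0.22.

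Of 20 kinases, adaptors and effectors downstream of the receptor, 9 were negative and 11 positive (median 0.01). Prkcq, the kinase that links the receptor to NF-kappaB, was at 18.5, 17.9 and 9.47 CPM in the control libraries, against 8.59 and 10.1 CPM with shFgf21 (log2 fold change -0.70 ± 0.29, SE, edgeR adjusted p = 0.426). Nfatc2, a calcium-regulated transcription factor, was at 46.8, 46.5 and 47.8 CPM in the control libraries, against 69.1 and 74.4 CPM with shFgf21, without overlap (0.61 ± 0.10, adjusted p = 0.126). Grap2, an adaptor that joins LAT to SLP-76, was at 23.2, 11.5 and 5.68 CPM and at 22.7 and 22.9 CPM, with overlap (0.76 ± 0.46, adjusted p = 0.586). Of 15 negative regulators of receptor signalling, 8 were negative and 7 positive (median -0.001016), led by the ubiquitin ligase Cblb at -0.33 ± 0.13, the adaptor Dok1 at 0.31 ± 0.15 and Cbl at 0.21 ± 0.18. Of 12 surface costimulation and adhesion genes, 5 were negative and 7 positive (median 0.09), with Cd96 at -0.66 ± 0.33, Slamf6 at 0.59 ± 0.16 and Ptprcap at -0.30 ± 0.31. The kinase, adaptor and effector list took 0.0980% to 0.118% of counts in shNC sorted libraries and 0.0503% to 0.0625% in shNC tumour libraries. The negative regulators took 0.0985% to 0.113% and 0.0313% to 0.0333%. The fold changes of these lists can thus include RNA of other cells, whose part was not tested. The lists were also read in tumours, where 0 constant regions, 9 kinases, adaptors and effectors, 10 negative regulators and 0 surface genes passed the filter on low counts. None was called by edgeR, with 2 negative regulators of the 10 at an unadjusted p under 0.05, where 6.22% of 14950 genes had one.

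**Figure D5:**
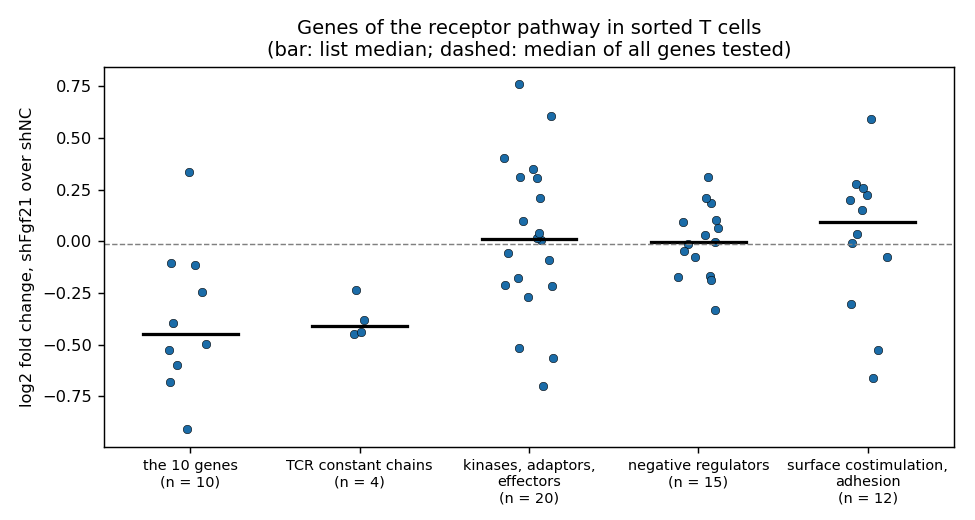
Log2 fold change of shFgf21 over shNC in sorted T cells for the 10 genes and 4 lists of other receptor pathway genes, a point per gene, with a bar at each list's median and a dashed line at the median of all genes tested. The medians are -0.45 for the 10 genes and -0.41 for the constant regions, and 0.01 and 0.09 for the kinase and surface lists, which turn to -0.04 and -0.07 without shNC replicate 3.

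Genes outside the 10 whose profile over the 5 sorted libraries was most like that of the CD3 chains were ranked by the root mean square difference in centred log2 CPM from the mean of Cd3d, Cd3e and Cd3g, among 10253 genes at a mean of at least 10 CPM. The closest were Skap1, an adaptor of receptor signalling, at 0.0451, Eml4, a microtubule-associated protein, at 0.0499, Klrc1, the NKG2A receptor, at 0.0742, Ly6c2, a surface antigen, at 0.0752 and Lag3, an inhibitory receptor, at 0.0779. Skap1 was at 22.1, 17.5 and 11.1 CPM in the control libraries, against 10.9 and 12.7 CPM with shFgf21, and it thus had the same high shNC replicates 1 and 2. On the same measure Lck was at 0.105, Zap70 at 0.153, Cd8a at 0.216, Cd8b1 at 0.234, Lat at 0.243, Cd247 at 0.287 and Cd4 at 0.453. In rank, Lck stood 11th and Zap70 25th of the 10253 genes, and Cd4 stood at 5858.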

How the data were processed

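Gene expression was measured by bulk RNA sequencing of 11 libraries. Per the file headers, the deposited table pairs gene counts (whole numbers, not normalized) with FPKM, and the submitters' processing notes name mm10. Aligner, counting program, annotation and strand setting: not given in the sources used here. Groups were taken from the sample titles.

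Each comparison was fitted to the counts by edgeR 4.0.16 (R 4.3.3): filterByExpr, TMM scaling and the quasi-likelihood F-test within each comparison, with Benjamini-Hochberg adjustment over all genes tested and a threshold of 0.05. CPM values are scaled within each kind of sample unless said otherwise. SE was taken as the size of the log2 fold change over the root of F. Ratios were tested by exact permutation over libraries (scipy 1.17.1). The script was tested on simulated counts. Depth limits precision: a count of 0 allows 0.157 to 0.201 CPM, counting error only.

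The 10 genes, the lists and the tests were chosen with earlier results of these data known. Genes named are the 10, Fgf21 and Abl1, up to 3 per pathway list by size of fold change at a mean of at least 10 CPM, the 5 most similar profiles, and markers. Marker lists covered T cells, macrophages, NK cells, gamma delta T cells, dendritic cells, neutrophils, B cells, mast cells and platelets, and mesenchymal cells. Alternatives were median-ratio factors, no filter, a mean of at least 5 CPM, DESeq2 1.42.0, limma 3.58.1 voom, all groups in 1 fit, leaving out each library (for list counts and shares added after seeing the data), a block on tumour title numbers, and FPKM in ratios.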

Additional observations from a re-analysis of the deposited data

How the results depend on the processing

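The count of the 10 genes called was 0 in sorted T cells, 0 in tumours and 10 between control sorted and tumour libraries under every alternative run, and 0, 0 and 10 whichever library was left out. Over all genes the calls in sorted T cells were 13, against 230 by DESeq2, 1 without a filter, 1 with all groups in 1 fit, and 0 to 34 without 1 library (34 without shNC replicate 3, 28 without shNC replicate 1, 1 and 0 without shFgf21 replicates 1 and 2). In tumours they were 5, against 115 by DESeq2, 21 by limma voom, 26 with all groups in 1 fit, 1 when genes below a mean of 5 CPM were dropped, and 0 to 8 without 1 library (8 without shNC replicate 1, 0 without shNC replicate 6 or shFgf21 replicate 3, 3 and 2 without shFgf21 replicates 1 and 2). With the 5 CPM filter no gene of the 10 was left to test in tumours. With the replicate block on the title numbers of the tumours, 131 genes were called, 0 of the 10, and Lck was at -1.17. Deviations of same-numbered tumour libraries correlated at 0.17 and -0.15, so the numbers were not taken as pairs.

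In sorted cells Cd247 was at 0.14 without shNC replicate 2 and at 0.12 without shFgf21 replicate 1, on the other side of 0 (range -0.40 to 0.14 without 1 library). Lat was at 0.028 and 0.032 without shNC replicates 1 and 2 (range -0.35 to 0.032). The cause was not tested. The Cd8b1 to Cd8a log2 difference reversed to 0.040 without shFgf21 replicate 2 (range -0.40 to 0.040). The other ratios kept their direction without 1 library: -1.33 to -0.75 for CD8 to CD4, 0.16 to 0.29 for signalling to CD3 and -0.66 to -0.13 for the summed level. From FPKM values the CD8 to CD4 log2 difference was -1.11. Apart from these 4 values of Cd247 and Lat, the direction and the side of the threshold held in the other 238 values computed for single genes. Where 1 shFgf21 sorted library was left, it was assumed to vary like the control group. Depth limits the tumour values, where 9 genes had 0 to 7 counts in a library and Lck 8 to 35.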

Other observations

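The deposited FPKM values divide by a gene length that equals, within 1 base, the summed length of all distinct GENCODE M21 exons of the gene for 97.5% of 16033 genes with over 100 counts in all. Overlapping exons of different transcripts are counted more than once in that sum. For Cd8a the implied length was 7695 bases, more than the gene's span of 5747 bases and 2.12 times its merged exons (3637 bases). For Cd8b1 the implied and merged lengths were both 1483 bases. By FPKM Cd8b1 was the highest of the 10 genes (mean of the 5 sorted libraries 18.6) and Cd8a was in place 7 (7.69). Per kilobase of merged exons they stood in places 2 and 4, at 18.5 and 16.2 CPM per kb with overlapping ranges. Lat and Lck had implied lengths 1.86 and 1.605 times their merged exons. A comparison between genes by these FPKM values therefore depends on how many transcripts are annotated, while a comparison of the same gene between libraries does not.

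The ratio of Cd4 counts to the summed CD3 chain counts (Cd3d, Cd3e, Cd3g and Cd247), chosen after the values were seen, was 0.191, 0.228 and 0.222 in control replicates 1 to 3, against 0.430 and 0.334 in shFgf21 replicates 1 and 2. The groups did not overlap, at an exact two-sided permutation p = 0.2, the smallest that the test as run here can give for 3 against 2 libraries. The library labelled shNC replicate 3 lay with the other shNC libraries in this ratio. The ratio of the CD8 chains to the CD3 chains, also chosen after the values were seen, was 0.770, 0.685 and 0.533 in shNC and 0.527 and 0.612 in shFgf21, and the groups overlapped (exact permutation p = 0.4). In that ratio shNC replicate 3 lay between the shFgf21 libraries. Without shNC replicate 3 the log2 difference was 0.86 for Cd4 to CD3 and -0.36 for CD8 to CD3, and neither ratio overlapped between the groups.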
